A study of Mus musculus with 36 samples.

Results

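The livers of mice homozygous for a changed liver X receptor alpha (LXRalpha), written F/F, were compared with those of homozygous controls, written W/W, under one treatment, a diet that promotes metabolic dysfunction-associated steatohepatitis (MASH) together with the LXR agonist T0901317. The comparison rests on 8 of the 36 libraries of the series, 4 from F/F and 4 from W/W livers, picked by the genotype and treatment in the sample labels, and it covers all 16638 genes expressed in the series. Hepatocyte genes were present in all 8 libraries, with Alb, albumin, at 27040 TPM or more in each. PolyA RNA was taken from males 11 to 12 weeks old. CRISPR had exchanged the tryptophan (W) at residue 441 of LXRalpha, in its ligand-binding domain, for phenylalanine (F). The labels name no Cre driver, tissue-specific promoter or founder line. All animals used here ate the Teklad TD.96121 diet, rich in fat and cholesterol, for 4 weeks, and by gavage received T0901317 (10 mg/kg) or vehicle on each day of the last 2 weeks. Besides the F/F and W/W livers with T0901317, 4 heterozygous W/F livers with T0901317 and 4 F/F and 4 W/W livers with vehicle entered a pair of further contrasts. The labels do not say whether litters or days were shared. The p-values below measure only the spread between samples within groups, estimated over all 36 libraries of the series.

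LXRs are nuclear receptors that are activated by oxidised cholesterol and bind DNA together with a retinoid X receptor. In hepatocytes they raise transcription of the sterol transporters Abcg5 and Abcg8 and of fatty acid synthesis genes, the latter in large part through the transcription factor SREBP-1c, a product of Srebf1. In macrophages they raise cholesterol efflux and restrain inflammatory genes, and LXRalpha takes part in keeping the identity of Kupffer cells, the resident macrophages of the liver. T0901317 activates LXRalpha and LXRbeta and is also known to act on the pregnane X receptor. Sterol synthesis genes are chiefly driven by the related factor SREBP-2, and genes of fatty acid oxidation by PPAR-alpha.

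Values are TPM (transcripts per 1000000), a measure corrected for gene length, so that levels of different genes can be set side by side. Depth, recovered from the steps between low TPM values, was 21.4 to 35.8 M reads (M, 1000000) in the F/F libraries and 22.8 to 34.3 M reads in the W/W libraries. The genotypes differed in make-up, with 14149 to 15111 genes at 1 TPM or more in F/F and 12505 to 12942 in W/W, and with 45.3% to 49.3% of all TPM in the 100 most abundant genes in F/F and 53.3% to 54.4% in W/W. The median gene was 0.43 higher in F/F on the log2 scale, and 0.04 higher after each library was divided by its median-of-ratios factor. A gene is called higher or lower below only where its Benjamini-Hochberg adjusted p from limma (two-sided moderated test on log2(TPM + 1)) was under 0.05 in the same direction in TPM as deposited and after this rescaling. Each log2 fold change is given as deposited, F/F over W/W, with its standard error after ±. By that rule 5223 of 16638 genes (31.4%) were called, 4066 higher in F/F (24.4%) and 1157 lower (6.95%). TPM as deposited gave 10517 calls (63.2%), with 56.3% of all genes higher and 6.96% lower, so that 89.0% of the calls were upward, while rescaled TPM gave 7793 (46.8%), 52.2% of them upward. In 50.4% of all genes the 4 F/F livers lay wholly above the W/W livers, and in 6.27% wholly below. On the first principal component of the 8 libraries, which carried 74.2% of the variance, the F/F livers lay between 35.1 and 69.7 and the W/W livers between -63.6 and -40.4. The libraries nearest to the other genotype were F/F replicate 3, which was the lowest of its group for 63.2% of the genes called higher, and W/W replicate 2, which was the highest of its group for 59.5% of them.

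The receptor genes themselves showed no call in either direction in any of 11 tested nuclear receptor and cofactor genes of the LXR pathway. Nr1h3 (chr2:91184061-91202834, GRCm38), which encodes LXRalpha in the mouse annotation, stood at 93.7, 102, 90.3 and 98.7 TPM in the F/F livers and 87.8, 82.9, 90.7 and 85.9 TPM in the W/W livers. Its log2 fold change of 0.15 ± 0.10 (adjusted p = 0.22) did not pass the threshold as deposited and was -0.37 after rescaling (adjusted p = 0.0023). Since the change is a substitution within the protein, the transcript level does not check the genotype labels. Nr1h2 (chr7:44549616-44553951), which encodes LXRbeta and is the symbol that the series' design text sets beside LXRalpha, stood at 44.9, 40.8, 36.6 and 37.3 TPM in the F/F livers and 23.7, 24.7, 26.1 and 23.8 TPM in the W/W livers. All 4 F/F livers lay above all 4 W/W livers, and the log2 fold change was 0.67 ± 0.10 (adjusted p = 2.1e-06) as deposited and 0.17 (adjusted p = 0.068) after rescaling, so no direction was called. Rxra, the retinoid X receptor partner, had a log2 fold change of 0.16 ± 0.09 (adjusted p = 0.14) as deposited and -0.36 (adjusted p = 0.003) after rescaling.

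Known LXR target genes of sterol and phospholipid handling were called in both directions. Of 15 tested, 6 were lower in F/F and 3 were higher, with a median log2 fold change of -0.19 against 0.43 over all genes. The share of higher genes was not above the 24.4% of all genes, while 6.95% of all genes were lower. Without F/F replicate 3 the lower genes numbered 4. The lower genes included the hepatocyte exporters, and the higher ones included transporters and regulators that macrophages also use. Abcg5, a subunit of the transporter that moves sterols into bile, was measured at 119, 114, 151 and 112 TPM in the F/F livers and 319, 448, 344 and 409 TPM in the W/W livers. Every F/F liver lay below every W/W liver, with a log2 fold change of -1.60 ± 0.23 (adjusted p = 1.1e-06), and its partner Abcg8 had -1.49 ± 0.27 (adjusted p = 2.8e-05). Pltp, the plasma phospholipid transfer protein, was at 38.2, 45.5, 33.9 and 50.6 TPM in the F/F livers and 259, 363, 258 and 227 TPM in the W/W livers, 6.58-fold lower by group means (log2 fold change -2.68 ± 0.37, adjusted p = 4.1e-07). Lpcat3, which places polyunsaturated chains in phospholipids, had a log2 fold change of -0.83 ± 0.14 (adjusted p = 8.0e-06). In the opposite direction, the cholesterol exporter Abcg1 was at 57, 52.6, 36.9 and 41.5 TPM in the F/F livers and 13.1, 22.7, 18.1 and 19.3 TPM in the W/W livers, with no overlap between the genotypes and a log2 fold change of 1.32 ± 0.24 (adjusted p = 2.0e-05). Mylip, whose product marks the low density lipoprotein receptor for degradation, was higher by 1.26 ± 0.18, and Arl4c, a small GTPase linked to cholesterol transport, by 1.78 ± 0.24 on the log2 scale. Abca1, the exporter that loads apolipoprotein A-I with cholesterol, reached 59.5, 64.7, 59.6 and 55.2 TPM in the F/F livers and 51.9, 48.3, 55.8 and 53.4 TPM in the W/W livers. The difference did not pass the threshold as deposited (0.19 ± 0.15, adjusted p = 0.28), and the sign was negative after rescaling (-0.33, adjusted p = 0.077).

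Genes for making fatty acids and triglycerides were lower in F/F almost throughout. Of 25 tested genes, 22 were lower and 0 higher, with a median log2 fold change of -2.62 (0.43 over all genes), and Lpin2, Dgat1 and Elovl1 were not called. Their summed level was 2694 to 3081 TPM in F/F and 28030 to 30170 TPM in W/W. Scd1 (chr19:44394455-44407879), the desaturase that makes oleic acid and the main contributor to that sum, was at 491, 697, 559 and 583 TPM in the F/F livers and 22177, 22058, 21511 and 21335 TPM in the W/W livers. The 4 W/W values lay close together and the highest F/F value, in replicate 2, was far under them, which gave a 37.4-fold difference of the group means and a log2 fold change of -5.23 ± 0.30 (adjusted p = 4.2e-14). Fasn (chr11:120805846-120824547), fatty acid synthase, was at 27.8, 26, 16.6 and 17.5 TPM in the F/F livers and 944, 1020.5, 775 and 625 TPM in the W/W livers. F/F replicates 3 and 4 were lowest, W/W replicate 4 was the lowest of its group, and the log2 fold change was -5.20 ± 0.41 (adjusted p = 2.8e-11). Pnpla3 (chr15:84167837-84187236), a lipid droplet hydrolase, was at 2.01, 1.24, 0.757 and 0.536 TPM in the F/F livers and 97.7, 66.6, 76.2 and 62.8 TPM in the W/W livers, or 66.7-fold lower by group means. The enzymes that supply and carboxylate acetyl-CoA were lower too, with log2 fold changes of -3.04 ± 0.26 for Acly (ATP citrate lyase, 28.1 to 42.9 TPM in F/F and 267 to 339.8 TPM in W/W) and -3.09 ± 0.18 for Acaca (acetyl-CoA carboxylase). Of the exon sequence of Acaca, 30.4% of 50-base stretches also occur in other annotated genes, so its level is less certain. The fatty acid elongase Elovl6 had -3.82 ± 0.27 (adjusted p = 2.5e-12).

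Among 6 lipogenic regulators, 3 were lower and 0 higher. Srebf1 (chr11:60199089-60222581) was at 145, 146, 122 and 117 TPM in the F/F livers and 635, 662, 710.1 and 694 TPM in the W/W livers. No F/F liver came near the W/W range, and the log2 fold change was -2.34 ± 0.22 (adjusted p = 4.7e-10). Mlxipl, which encodes the carbohydrate response factor ChREBP, was lower by a smaller margin, -0.75 ± 0.17 (adjusted p = 2.7e-04). Thrsp, a lipogenic regulator known as Spot 14, spanned 26.2 to 97 TPM in F/F and 1813 to 2724 TPM in W/W, with -5.02 ± 0.67 (adjusted p = 2.4e-07).

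**Figure D1:**
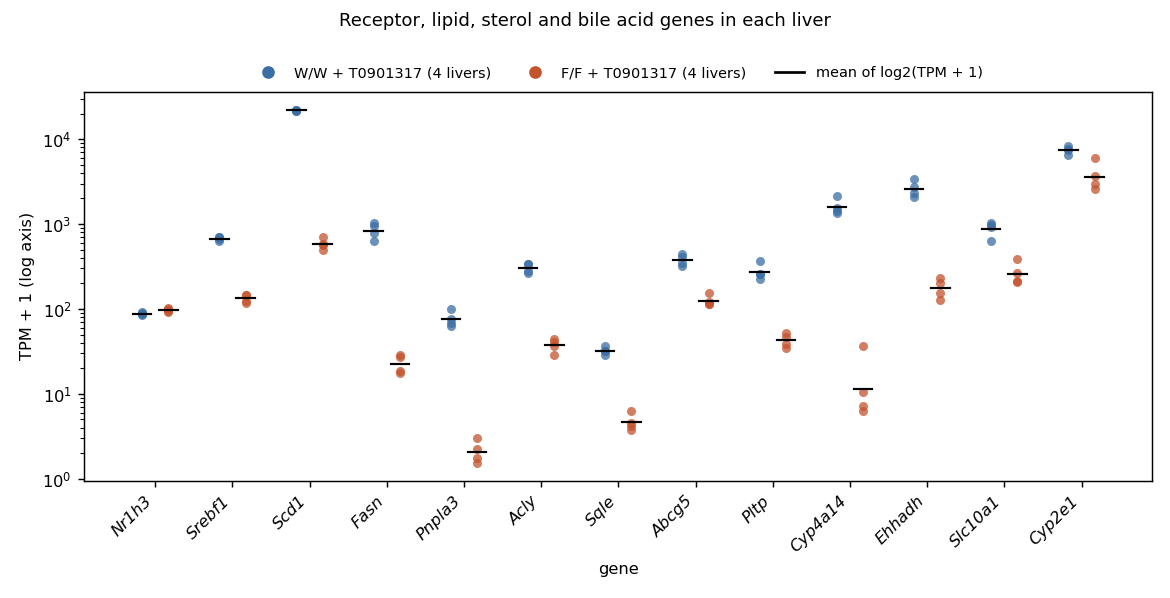
TPM + 1 on a log axis for 13 receptor, lipid, sterol and bile acid genes in each of the 4 F/F and 4 W/W livers with T0901317, with a bar at the mean of log2(TPM + 1). The genotypes overlap for Nr1h3 only, and Scd1, Fasn, Pnpla3 and Cyp4a14 show the widest gaps.

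The sterol synthesis and uptake genes, which answer chiefly to SREBP-2, were lower in F/F in 24 of 25 tested members and higher in 0, with a median log2 fold change of -1.72. In the same 24 genes no F/F liver overlapped a W/W liver, against the 6.27% of all genes in which F/F lay wholly below. Srebf2 itself was not called, at -0.15 as deposited (adjusted p = 0.35) and -0.65 (adjusted p = 2.5e-05) after rescaling. Sqle, squalene epoxidase, was at 5.26, 3.6, 2.76 and 3.15 TPM in the F/F livers and 35.4, 30.9, 30.7 and 27.8 TPM in the W/W livers. Every W/W value was several times every F/F value, and the log2 fold change was -2.80 ± 0.17 (adjusted p = 9.6e-14). The largest difference of the list was that of Fdps, farnesyl diphosphate synthase (-3.73 ± 0.22, adjusted p = 8.3e-14), which shares 26.2% of its 50-base stretches with other annotated genes. Idi1, isopentenyl diphosphate isomerase, had -2.88 ± 0.23 (adjusted p = 2.7e-11) and Tm7sf2, a sterol reductase, -2.89 ± 0.16 (adjusted p = 1.8e-14).

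Promoter sequences are shown for 4 genes that were lower together, 3 of sterol synthesis and Fasn, because the lists differ in the motifs found there. Each is the 250 bases before the annotated start from RefSeq (GRCm38.p6), given 5′ to 3′ on the gene's strand, with matches on either strand in capitals. The motifs searched were TCACNCCAC, a form of the sterol response element bound by SREBPs, and CCAAT, the NF-Y box, which also reads ATTGG.
Hmgcs1, chr13:119690101-119690350, plus strand: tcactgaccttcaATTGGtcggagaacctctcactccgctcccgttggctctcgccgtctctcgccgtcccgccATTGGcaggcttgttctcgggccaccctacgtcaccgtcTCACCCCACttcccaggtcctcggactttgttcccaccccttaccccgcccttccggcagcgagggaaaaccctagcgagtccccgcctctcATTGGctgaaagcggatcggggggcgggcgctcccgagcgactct
Idi1, chr13:8885356-8885605, plus strand: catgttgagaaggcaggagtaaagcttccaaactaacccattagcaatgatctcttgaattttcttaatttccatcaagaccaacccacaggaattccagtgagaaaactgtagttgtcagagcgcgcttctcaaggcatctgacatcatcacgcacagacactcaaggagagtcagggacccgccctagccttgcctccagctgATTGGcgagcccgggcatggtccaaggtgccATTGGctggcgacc
Tm7sf2, chr19:6067851-6068100, minus strand: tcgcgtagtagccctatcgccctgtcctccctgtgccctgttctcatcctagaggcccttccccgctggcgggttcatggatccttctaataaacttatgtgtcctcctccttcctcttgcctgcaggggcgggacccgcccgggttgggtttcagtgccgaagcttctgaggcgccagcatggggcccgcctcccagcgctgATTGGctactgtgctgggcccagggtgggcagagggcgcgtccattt
Fasn, chr11:120824548-120824797, minus strand: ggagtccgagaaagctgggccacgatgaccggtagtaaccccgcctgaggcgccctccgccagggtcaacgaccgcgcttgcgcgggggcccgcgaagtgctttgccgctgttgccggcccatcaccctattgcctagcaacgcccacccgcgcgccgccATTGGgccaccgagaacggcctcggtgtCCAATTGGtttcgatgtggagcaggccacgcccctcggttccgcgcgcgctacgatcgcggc
A gene counted where any of its listed starts had a match. The CCAAT box occurred in 16 of the 17 sterol synthesis genes with a listed promoter (94.1%) and in 11 of 19 such fatty acid and triglyceride genes (57.9%). It occurred in 39.9% of the 10846 tested genes with a listed promoter and in 37.5% of all 27025 genes with one. TCACNCCAC was found in 1 sterol gene, Hmgcs1, and in 0 of the 19, against 1.36% of these tested genes and 1.22% of all genes with a promoter. These are matches of letters in a short window, given as a description. Hmgcs1, which makes the precursor of mevalonate, was at 62 to 69.1 TPM in F/F and 168 to 194 TPM in W/W (log2 fold change -1.46 ± 0.21, adjusted p = 9.4e-07).

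Fatty acid oxidation and PPAR-alpha target genes were lower in F/F in 18 of 22 tested members and higher in 1, with a median log2 fold change of -0.66. The steepest differences were in the omega-hydroxylases. Cyp4a14 was at 6.26, 5.27, 35.8 and 9.56 TPM in the F/F livers and 1340.1, 2165, 1408 and 1556 TPM in the W/W livers, with F/F replicate 3 standing above the other F/F livers and all of them far below W/W (log2 fold change -7.11 ± 0.89, adjusted p = 9.5e-08). Its relative Cyp4a10 showed -4.94 ± 0.67 (adjusted p = 3.1e-07), and -5.57 without F/F replicate 3, its highest F/F liver. Cyp4a10 shares 29.8% of its 50-base stretches with other genes. Ehhadh, a peroxisomal beta-oxidation enzyme, was at 126, 154, 232 and 202 TPM in the F/F livers and 2723, 3420.2, 2073 and 2327 TPM in the W/W livers, or 14.8-fold lower by group means (-3.89 ± 0.20, adjusted p = 3.2e-15). Acot1, a cytosolic acyl-CoA thioesterase with 19.2% shared stretches, had -4.37 ± 0.36 (adjusted p = 6.5e-11), and Ppara itself -1.33 ± 0.30 (adjusted p = 2.9e-04). The member that was higher was Fgf21, a secreted metabolic hormone, at 6.55 to 15.9 TPM in F/F and 2.0 to 4.67 TPM in W/W (1.65 ± 0.39, adjusted p = 5.1e-04). Of 26 nuclear-encoded respiratory chain subunits, 14 were lower and 0 higher (median -0.19), by small margins such as -0.62 ± 0.09 (adjusted p = 1.3e-06) for Sdha, a subunit of succinate dehydrogenase. Lipid droplet genes were lower in 7 of 14 tested members (median -0.49), among them Plin2, which coats droplets (-1.36 ± 0.18, adjusted p = 2.8e-07), Mgll, monoacylglycerol lipase (-1.94 ± 0.20, adjusted p = 3.2e-09), and Cidec, a droplet fusion protein (-1.08 ± 0.30, adjusted p = 0.0023). Without both F/F replicate 3 and W/W replicate 2, Cidec was at -0.75 with an adjusted p of 0.0521. The droplet protein Hsd17b13 was the member that was higher (1.11 ± 0.12, adjusted p = 5.0e-09), with 2 such members without W/W replicate 2.

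Hepatocyte transport and detoxification genes were lower in F/F in part. Bile acid synthesis and transport genes were lower in 9 of 22 and higher in 1 (median -0.27), or in 2 without F/F replicate 3. Slc10a1, the sodium-dependent bile acid uptake carrier, was at 215, 263, 389.8 and 206 TPM in the F/F livers and 920.3, 629.6, 1015 and 966 TPM in the W/W livers. Replicate 3 was the highest F/F liver and replicate 2 the lowest W/W liver, and these did not meet (log2 fold change -1.74 ± 0.21, adjusted p = 5.8e-08). Cyp8b1, the sterol 12-alpha-hydroxylase, had -1.81 ± 0.31 (adjusted p = 1.0e-05), and the carrier Slco1a1 -2.86 ± 0.40 (adjusted p = 5.1e-07), while Slco1a4, a related carrier, was higher (2.14 ± 0.27, adjusted p = 8.4e-08). Cyp7a1, the rate-limiting enzyme of bile acid synthesis, was at 60, 106, 111 and 49.8 TPM in the F/F livers and 120.5, 69.1, 143 and 219.8 TPM in the W/W livers. The ranges overlapped, and the log2 fold change of -0.72 ± 0.45 (adjusted p = 0.16) was not called, though it was -1.23 (adjusted p = 0.023) after rescaling. Among 27 cytochrome P450 and conjugation enzymes, 11 were lower and 1 higher, with a median of -0.56. Cyp2e1, the ethanol-inducible P450, was at 2586, 3632, 6058 and 2978 TPM in the F/F livers and 7531, 6469, 7669.9 and 8264 TPM in the W/W livers. F/F replicate 3 approached the lowest W/W value without reaching it, and the log2 fold change was -1.05 ± 0.25 (adjusted p = 5.5e-04). The glutathione transferase Gstp1, with 33.7% shared stretches, was the member that was higher (2.10 ± 0.22, adjusted p = 4.6e-09), and the sulfotransferase Sult2a8 showed the largest difference (-3.26 ± 0.30, adjusted p = 4.8e-10).

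Genes of growth hormone signalling and liver genes with a male bias, which growth hormone pulses maintain, were listed together. They were lower in 9 of 18 tested members and higher in 2 (median -0.54). Genes with a female bias were lower in 3 of 7 tested members and higher in 2 (median 0.61), against 6.95% and 24.4% of all genes. Their higher members numbered 1 without F/F replicate 3, and their lower members 2 without W/W replicate 2. Hsd3b5, a male-specific steroid reductase with 21.2% shared stretches, was at 0.188, 0.237, 0.219 and 0.416 TPM in the F/F livers and 61.1, 7.4, 89.4 and 58.3 TPM in the W/W livers. W/W replicate 2 lay well under the other W/W livers, and without it the log2 fold change went from -5.02 ± 0.90 (adjusted p = 2.0e-05) to -5.78. Cyp4a12a (48.9% shared) had -4.94 ± 0.37 (adjusted p = 8.9e-12), and Ghr, the growth hormone receptor, -0.67 ± 0.14 (adjusted p = 1.7e-04). Mup20, a major urinary protein, went the other way, at 16340, 17615, 13813 and 15460 TPM in the F/F livers and 3558, 1431, 4019.9 and 3047 TPM in the W/W livers. All F/F livers exceeded all W/W livers (2.49 ± 0.36, adjusted p = 1.1e-06), and 50.5% of its 50-base stretches occur in other genes. Urea cycle and amino acid enzymes were lower in 9 of 18 and higher in 0 (median -0.26). Hpd, which degrades tyrosine, had -1.51 ± 0.17 (adjusted p = 9.6e-09), and Bhmt, betaine-homocysteine methyltransferase with 25.3% shared stretches, -1.70 ± 0.17 (adjusted p = 2.3e-09). Cps1, the entry enzyme of the urea cycle, had -0.54 ± 0.21 (adjusted p = 0.026), a call that was lost without any 1 of 4 libraries (adjusted p of 0.0603 to 0.0804 without F/F replicate 1 or 4 or W/W replicate 3 or 4). Otc, the next enzyme, was not called (-0.10 ± 0.11, adjusted p = 0.43). Of 20 hepatocyte identity genes, 6 were lower and 2 higher (median 0.12). Alb was at 32762, 27040, 41111 and 29857 TPM in the F/F livers and 46204, 51770, 49870 and 57843 TPM in the W/W livers, lower in each F/F liver than in each W/W liver (-0.67 ± 0.19, adjusted p = 0.0034), with an adjusted p of 0.0511 when no filter on low values was applied. Ahsg, which encodes fetuin-A, was higher (1.15 ± 0.11, adjusted p = 1.5e-09), Apoa2 was lower (-0.92 ± 0.14, adjusted p = 1.6e-06), and Hnf4a, a transcription factor of hepatocyte identity, had 0.16 ± 0.14 (adjusted p = 0.35) with the sign turned after rescaling (-0.36).

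Macrophage genes split by type. Genes of lipid-associated macrophages, the type that gathers in fatty and injured liver, were higher in 14 of 19 tested members with a median log2 fold change of 2.95. Genes of resident Kupffer cells were lower in 5 of 13 and higher in 1, with a median of -0.19. In bulk tissue, a change in the number of cells of a type and a change in RNA per cell cannot be told apart. Gpnmb (chr6:49036546-49070929), a glycoprotein of lipid-laden macrophages, was at 165, 194, 143 and 224 TPM in the F/F livers and 0.57, 2.76, 0.963 and 0.595 TPM in the W/W livers. W/W replicate 2 was the highest W/W liver, yet every F/F liver held far more, and the log2 fold change of 6.44 ± 0.53 (adjusted p = 5.7e-11) was the highest among the genes named. Trem2 (chr17:48346401-48354147), a lipid-sensing receptor, was at 32.6, 31.2, 22.5 and 25.9 TPM in the F/F livers and 0.471, 1.66, 0.43 and 0.485 TPM in the W/W livers (36.8-fold by group means, 4.08 ± 0.27, adjusted p = 5.6e-13). Spp1, osteopontin, was at 1582, 1277, 700.1 and 744 TPM in the F/F livers and 85.2, 155, 87.2 and 123 TPM in the W/W livers, with replicates 3 and 4 lower than the other F/F livers and all above W/W (3.20 ± 0.29, adjusted p = 3.5e-10). Lgals3, galectin-3, reached 205, 196, 124 and 207 TPM in F/F and 7.29, 21.8, 8.8 and 8.3 TPM in W/W (3.98 ± 0.46, adjusted p = 2.3e-08). The integrin Itgax (3.75 ± 0.38, adjusted p = 2.2e-09), the tetraspanin Cd63 (3.75 ± 0.34, adjusted p = 3.8e-10) and the beta-glucan receptor Clec7a (3.85 ± 0.42, adjusted p = 9.6e-09) also had higher levels in F/F.

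The lipid-associated list held 3 members that were lower in F/F (1 without F/F replicate 3 or without W/W replicate 2), all of them lipid handling genes that cells other than macrophages also use. Fabp5, a fatty acid binding protein, was at 54.3, 57.1, 38 and 61.2 TPM in the F/F livers and 203, 171, 189 and 142 TPM in the W/W livers, with no overlap (-1.73 ± 0.36, adjusted p = 1.4e-04). For Lpl, lipoprotein lipase (-0.73 ± 0.30, adjusted p = 0.035), the call was lost without F/F replicate 2 or 3 or W/W replicate 2 or 4 (adjusted p of 0.0876 to 0.12). For Fabp4, another fatty acid binding protein (-0.65 ± 0.24, adjusted p = 0.019), it was lost without F/F replicate 3 (0.112) or W/W replicate 2 (0.186).

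Kupffer cell markers differed among themselves. Timd4, a receptor for dying cells, was at 0.134, 0.226, 0.73 and 0.212 TPM in the F/F livers and 4.82, 5.28, 10.1 and 6.84 TPM in the W/W livers. Cd163, the haemoglobin scavenger receptor, was at 0.0668, 0, 0.124 and 0.118 TPM in the F/F livers and 4.17, 3.94, 4.0 and 4.82 TPM in the W/W livers. In F/F, Cd163 was thus at or near the limit of detection, with at most 7 recovered reads in a library, while W/W livers held about the same level as one another. Log2 fold changes were -2.52 ± 0.23 (adjusted p = 4.6e-10) for Timd4 and -2.28 ± 0.19 (adjusted p = 4.2e-11) for Cd163. Clec4f, a lectin specific to Kupffer cells, was at 29.3, 26.6, 28.2 and 37.3 TPM in the F/F livers and 69.5, 125, 106 and 118 TPM in the W/W livers, lower in F/F but still well expressed (-1.73 ± 0.27, adjusted p = 3.4e-06). Vsig4, a complement receptor, was at 18.6, 16.7, 15.4 and 28.8 TPM in the F/F livers and 18.3, 35.1, 29.3 and 32.4 TPM in the W/W livers, and its ranges overlapped (-0.52 ± 0.31, adjusted p = 0.15). Cd5l, a macrophage survival factor and LXR target, was not called (-0.19, adjusted p = 0.68). Folr2 was lower (-1.75 ± 0.29, adjusted p = 5.6e-06), although 63.1% of its exon length overlaps a gene on the opposite strand and the strand setting of the counting is not given in the sources used here. The member that was higher was Cd38, an enzyme that consumes NAD (1.13 ± 0.19, adjusted p = 1.1e-05).

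Inflammatory genes were mostly higher in F/F, 20 of 29 tested cytokine, chemokine and innate sensor genes with 0 lower and a median of 1.74. Ccl2, which draws monocytes into tissue, was at 24.3, 20.3, 11.1 and 32.8 TPM in the F/F livers and 1.28, 4.09, 2.07 and 1.62 TPM in the W/W livers. Replicate 3 was the lowest F/F liver and replicate 2 the highest W/W liver, and the groups stayed apart (2.80 ± 0.56, adjusted p = 8.4e-05). Tnf was less abundant, at 3.52, 3.59, 0.898 and 2.81 TPM in the F/F livers and 0.0888, 0.33, 0.0684 and 0.338 TPM in the W/W livers, again without overlap (1.54 ± 0.38, adjusted p = 7.8e-04). Further members were Cd14, the lipopolysaccharide co-receptor (3.20 ± 0.49, adjusted p = 1.9e-06), Cxcl1, a neutrophil chemoattractant (2.80 ± 0.79, adjusted p = 0.0031), and Tlr2, a sensor of bacterial lipoproteins (2.67 ± 0.37, adjusted p = 5.0e-07). Il1b was not called, with 0.94 ± 0.38 (adjusted p = 0.033) as deposited and 0.55 (adjusted p = 0.23) after rescaling. Genes of monocytes and neutrophils were higher in 12 of 16 (median 1.71), among them Ccr2, the receptor for Ccl2 (1.94 ± 0.32, adjusted p = 6.5e-06), the fractalkine receptor Cx3cr1 (3.00 ± 0.27, adjusted p = 3.7e-10) and S100a9, a neutrophil calcium-binding protein (2.56 ± 0.50, adjusted p = 6.7e-05). The neutrophil elastase gene Elane was lower (-0.89 ± 0.27, adjusted p = 0.0053). Antigen presentation by MHC class II was represented by 11 genes, 8 of them higher (median 1.98). Cd74, the invariant chain, was at 1639, 983, 647 and 732 TPM in the F/F livers and 62.6, 228, 135 and 111 TPM in the W/W livers, highest in F/F replicate 1 and lowest in W/W replicate 1 (2.94 ± 0.55, adjusted p = 3.6e-05). Lymphocyte genes summed to 16 to 36.2 TPM in F/F and 7.84 to 13.8 TPM in W/W. Of these, 5 of 14 were higher, Cd8a among them (0.98 ± 0.22, adjusted p = 2.9e-04), or 3 without W/W replicate 2, a share near the 24.4% of all genes. Of 19 interferon-stimulated genes, 1 was higher and 1 lower, against 24.4% and 6.95% of all genes. The higher one was Oas1a (57.6% shared stretches, 1.53 ± 0.35, adjusted p = 3.4e-04). The lower one was Bst2 (-0.72 ± 0.21, adjusted p = 0.0045, and -0.55 with an adjusted p of 0.0557 without F/F replicate 3 and W/W replicate 2).

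Receptors and bridging proteins for the uptake of dying cells were higher in 10 of 15 (median 1.15) and lower in 2, Timd4 and the fatty acid translocase Cd36 (-1.24 ± 0.31, adjusted p = 0.001). Mertk, a receptor tyrosine kinase for this uptake, was at 28.9, 26.1, 21.1 and 26.4 TPM in the F/F livers and 9.32, 11.6, 11.2 and 11.7 TPM in the W/W livers, with no overlap (1.15 ± 0.19, adjusted p = 6.0e-06). Its relative Axl (2.01 ± 0.29, adjusted p = 7.3e-07), its ligand Gas6 (1.44 ± 0.18, adjusted p = 1.2e-07), the bridging protein Mfge8 (2.82 ± 0.23, adjusted p = 3.1e-11) and the complement component C1qa (2.35 ± 0.30, adjusted p = 9.7e-08) were likewise above W/W.

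**Figure D2:**
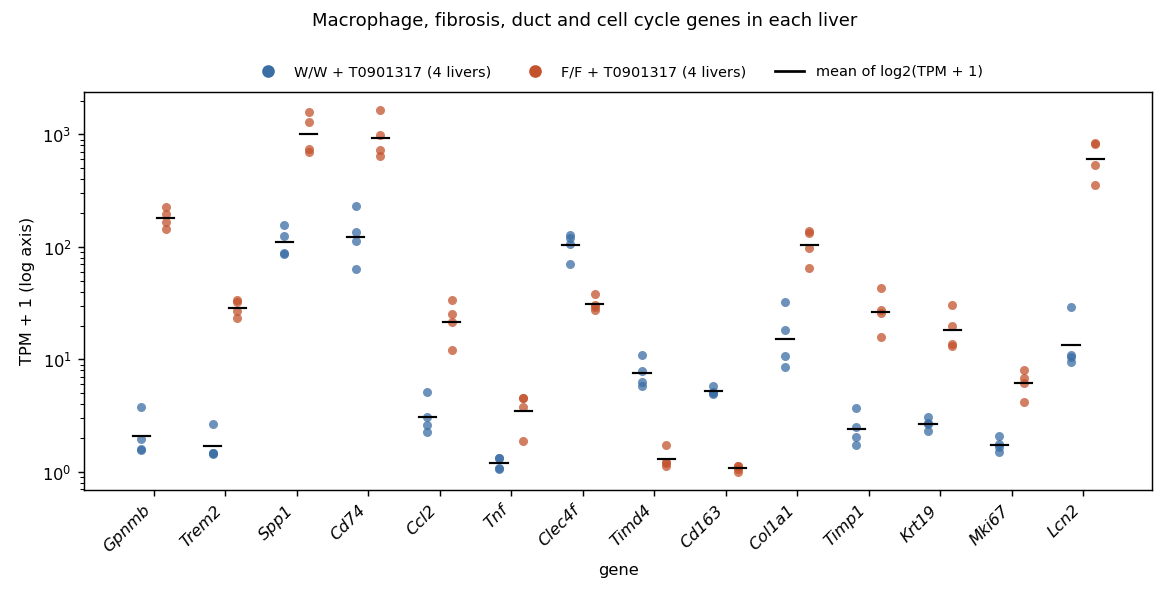
TPM + 1 on a log axis for 14 macrophage, fibrosis, duct and cell cycle genes in each of the 4 F/F and 4 W/W livers with T0901317, with a bar at the mean of log2(TPM + 1). Clec4f, Timd4 and Cd163 are lower in F/F and the other genes are higher, and no gene shown has overlapping genotypes.

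Fibrosis genes were higher in F/F in 19 of 25 tested collagen and matrix members and in 16 of 22 matrix proteases, inhibitors and crosslinkers, with 0 lower in either list and medians of 1.67 and 1.65. Col1a1 (chr11:94936224-94953042), the alpha-1 chain of type I collagen, was at 132, 139, 63.8 and 96.5 TPM in the F/F livers and 9.77, 31.2, 17.4 and 7.63 TPM in the W/W livers. F/F replicate 3 was lowest and W/W replicate 2 highest in their groups, and they did not meet (2.77 ± 0.39, adjusted p = 6.8e-07). The partner chain Col1a2 had 2.62 ± 0.33 (adjusted p = 8.7e-08), type III collagen Col3a1 2.05 ± 0.35 (adjusted p = 9.9e-06), and the proteoglycan lumican, Lum, 3.32 ± 0.24 (adjusted p = 5.3e-12). Timp1, an inhibitor of matrix proteases, was at 41.8, 24.7, 14.7 and 26.5 TPM in the F/F livers and 0.738, 2.68, 1.51 and 1.04 TPM in the W/W livers (3.46 ± 0.36, adjusted p = 5.1e-09). The proteases Mmp12, of macrophages (3.62 ± 0.35, adjusted p = 1.4e-09), Mmp2 (3.13 ± 0.26, adjusted p = 7.4e-11) and Mmp7, of duct cells (3.75 ± 0.35, adjusted p = 5.8e-10), were higher as well. Stellate cell and myofibroblast genes were higher in 14 of 22 with 0 lower (median 1.33), including Pdgfrb, the receptor for platelet-derived growth factor B (1.97 ± 0.21, adjusted p = 4.2e-09), and Cygb, a globin of stellate cells (2.90 ± 0.21, adjusted p = 3.7e-12). Acta2, smooth muscle actin and the usual mark of myofibroblasts, was not called (5.15 to 15.2 TPM in F/F, 5.13 to 11.1 TPM in W/W, 0.53 ± 0.37, adjusted p = 0.21), but had 1.03 with an adjusted p of 0.0252 without F/F replicate 3 and W/W replicate 2.

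Bile duct and ductular reaction genes were higher in 16 of 17 tested members with a median of 1.77, and Krt23 alone was lower (-1.82 ± 0.27, adjusted p = 1.0e-06). Krt19, a keratin of duct cells, was at 29.2, 19, 12.8 and 12.1 TPM in the F/F livers and 1.73, 2.1, 1.69 and 1.29 TPM in the W/W livers. Replicates 3 and 4 were the lower F/F livers and still many times above W/W (2.76 ± 0.22, adjusted p = 2.8e-11). Epcam, an adhesion molecule of duct and progenitor cells, had 3.28 ± 0.30 (adjusted p = 4.1e-10), Tspan8 3.60 ± 0.27 (adjusted p = 6.7e-12), and Sox9, a duct transcription factor, 1.77 ± 0.21 (adjusted p = 4.3e-08). Cell cycle genes were higher in 19 of 27 with 0 lower (median 1.11). Mki67, which marks cycling cells, was at 7.12, 5.14, 3.21 and 5.78 TPM in the F/F livers and 0.506, 1.1, 0.657 and 0.78 TPM in the W/W livers (1.81 ± 0.25, adjusted p = 4.0e-07), and Top2a, Cdk1 and Ccnb2 had 1.35 ± 0.23, 1.71 ± 0.26 and 2.29 ± 0.30. In a mixed list of fetal liver and tumour-associated genes, 10 of 13 tested were higher (median 2.03), among them the imprinted RNA H19 (78.1, 73.1, 56.2 and 55 TPM in F/F, 1.56, 6.84, 2.98 and 2.3 TPM in W/W, 4.03 ± 0.41, adjusted p = 3.3e-09) and the Golgi protein Golm1 (2.61 ± 0.25, adjusted p = 7.5e-10). Ly6d, Sprr1a, Npy, Cd44 and Anxa2 are also on this list, while its members Igf2 and Dlk1 did not pass the filter on low values. Afp, alpha-fetoprotein, was not called (-0.47 ± 0.21, adjusted p = 0.058), though its negative value was called without F/F replicate 2 (-0.71, adjusted p = 0.00416) and without W/W replicate 2 (-0.58, adjusted p = 0.0281). Lysosomal genes were higher in 15 of 26 (median 0.96), such as the proteases Ctsk (2.90 ± 0.29, adjusted p = 1.7e-09) and Ctsb (1.12 ± 0.15, adjusted p = 2.6e-07). Nrf2 antioxidant genes were higher in 9 of 16 (median 0.90), such as Hmox1, haem oxygenase (1.74 ± 0.31, adjusted p = 1.7e-05), and Nqo1, a quinone reductase (1.53 ± 0.29, adjusted p = 4.2e-05). Among 20 stress response genes, 5 were higher (median 0.56), or 3 without F/F replicate 3, a share near or below the 24.4% of all genes. The widest difference among them was that of Atf3 (2.67 ± 0.37, adjusted p = 5.7e-07).

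**Figure D3:**
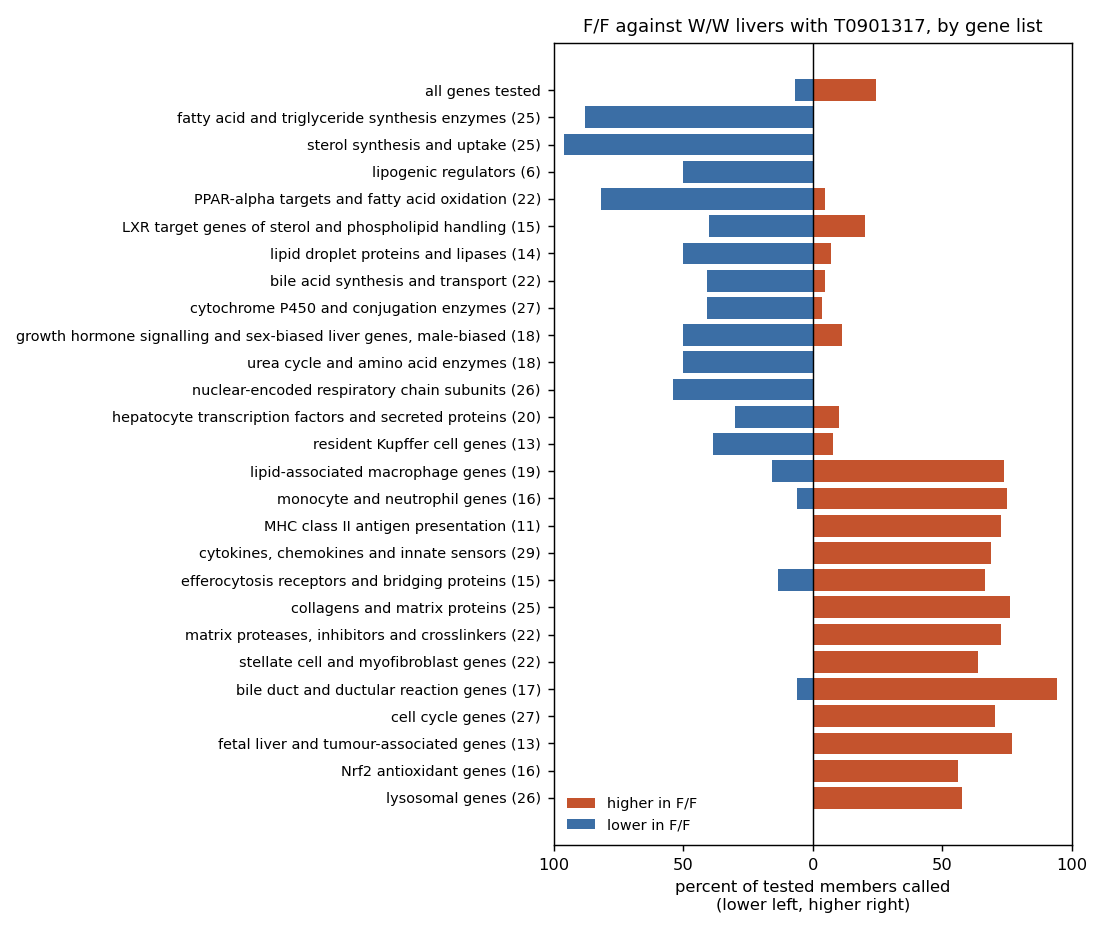
Percent of the tested members of each gene list called lower (left) or higher (right) in F/F against W/W livers with T0901317, with the number tested in brackets and all 16638 genes at the top (6.95% lower, 24.4% higher). Synthesis lists extend to the left, and macrophage, matrix, duct and cell cycle lists to the right.

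Summed levels of several marker lists differed along with these groups. The sums in F/F and W/W were 3200 to 5195 and 1132 to 1495 TPM for the list of lipid-associated macrophages, 56.6 to 157 and 10.5 to 27.1 TPM for monocytes and neutrophils, 2973 to 5291 and 1117 to 1478 TPM for duct genes and 1356 to 1966 and 724 to 1006 TPM for matrix genes, with no overlap in any of these. A sum adds all members of a list and is not specific to 1 cell type. Spp1 counts in both the macrophage and the duct sum, the duct sum includes the keratins Krt8 and Krt18, and the matrix sum includes Fn1. Summed Kupffer cell markers overlapped, at 284 to 443 TPM in F/F and 267 to 492 TPM in W/W, as did 20 endothelial genes, at 194 to 322 and 192 to 267 TPM. Of the endothelial genes, Cd34 and Stab1 were higher and Cdh5 and Ptprb lower, against 24.4% and 6.95% of all genes. Both lower calls were lost without F/F replicate 3, W/W replicate 2 or W/W replicate 4, and that of Cdh5 without F/F replicate 4 (adjusted p of 0.0554 to 0.249), while 4 were higher without F/F replicate 3 and W/W replicate 2. Of these marker lists, all members were tested except Xlr of Kupffer cells, Mpo and Fcnb of neutrophils and Vcan of matrix, which did not reach 1 TPM in 4 libraries of the series. What part these cell types had in the differences of the other genes was not tested. Genes that mark other tissues were lower in 5 of 7 tested and higher in 1, Vil1, an actin-bundling protein of brush borders (1.12 to 2.67 TPM in F/F, 0 to 0.183 TPM in W/W, 1.22 ± 0.15, adjusted p = 6.6e-08). The lower members included Hbb-bs, the beta-globin of red blood cells (53.2% shared stretches, -0.84 ± 0.26, adjusted p = 0.0052), and Cfd, an adipose complement factor that liver also expresses (1.11, 0.531, 0.982 and 1.4 TPM in F/F, 73.9, 55.7, 85.8 and 116 TPM in W/W, -5.36 ± 0.57, adjusted p = 5.7e-09). Of 14 reference genes, 3 were higher and 2 lower (1 lower without F/F replicate 3 or without W/W replicate 2), against 24.4% and 6.95% of all genes. Actb was higher (1.38 ± 0.19, adjusted p = 5.3e-07), and Gapdh had 0.08 ± 0.10 (adjusted p = 0.45) as deposited with the sign turned after rescaling (-0.44).

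Acute phase genes were higher in 6 of 18 and lower in 0 (median 1.03), or higher in 4 without F/F replicate 3 and W/W replicate 2, a share near the 24.4% of all genes. Lcn2, a siderophore-binding protein of injured hepatocytes and neutrophils, was at 818, 530.3, 356 and 829 TPM in the F/F livers and 10, 28.1, 8.46 and 9.57 TPM in the W/W livers. W/W replicate 2 stood above the other W/W livers and far below F/F (5.48 ± 1.05, adjusted p = 4.9e-05). Hp, haptoglobin, had 1.84 ± 0.40 (adjusted p = 1.9e-04) and Hpx, haemopexin, 1.51 ± 0.38 (adjusted p = 9.9e-04), while Saa1, serum amyloid A, was not called (1.53 ± 1.23, adjusted p = 0.28). Complement and coagulation genes were higher in 3 of 22 and lower in 1 (median 0.37), against 24.4% and 6.95% of all genes, and 1 was higher without F/F replicate 3 and W/W replicate 2. C3 was higher (1.15 ± 0.25, adjusted p = 2.0e-04) and Mbl2, a lectin that starts complement activation, lower (-1.39 ± 0.23, adjusted p = 8.1e-06).

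The widest differences over all genes, taken as the 12 largest and 12 smallest log2 fold changes among called genes that averaged 5 TPM or more in 1 genotype and whose livers did not overlap, ran across these groups. The higher set held Gpnmb, Lcn2, Trem2, Lgals3, Clec7a and H19, described above, and Ubd, Cpe, H2-M2, Sult2a2, Enho and Gm11843. Ubd, a ubiquitin-like modifier induced by inflammatory cytokines, was at 609, 533, 349.9 and 336 TPM in the F/F livers and 7.04, 13.8, 8.18 and 8.03 TPM in the W/W livers (5.47 ± 0.63, adjusted p = 2.3e-08). Cpe, carboxypeptidase E, was at 54.1, 73.2, 23.2 and 36.7 TPM in the F/F livers and 0.418, 1.45, 1.12 and 0.283 TPM in the W/W livers (4.65 ± 0.37, adjusted p = 3.3e-11). H2-M2, a non-classical MHC class I gene, was at 46.1, 26.4, 31.1 and 34.7 TPM in the F/F livers and 0.188, 0.906, 0.361 and 0.119 TPM in the W/W livers (4.68 ± 0.53, adjusted p = 2.1e-08). In each, W/W replicate 2 was the highest of its group and remained below every F/F liver. Sult2a2, a sulfotransferase with 62.1% of its stretches shared, was at 18.3, 3.97, 58.8 and 29.6 TPM in the F/F livers and 0.196, 0.584, 0 and 0 TPM in the W/W livers (4.12 ± 0.48, adjusted p = 2.3e-08). Its F/F livers varied widely, and without F/F replicate 2 the value was 4.81. Enho, which encodes the secreted peptide adropin, was at 19.6, 22.5, 25.8 and 15.3 TPM in the F/F livers and 0.459, 0, 0.706 and 0.655 TPM in the W/W livers (3.91 ± 0.23, adjusted p = 5.9e-14), with all F/F livers far above all W/W livers. Gm11843, annotated as a processed pseudogene with 26.3% shared stretches, was at 220.3, 161, 82.1 and 202 TPM in F/F and 3.25, 11.7, 5.54 and 4.78 TPM in W/W (4.54 ± 0.44, adjusted p = 1.0e-09).

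The lower set held Cyp4a14, Cfd, Scd1, Fasn and Pnpla3, described above, with Gm32468, Ugt1a5 and 5 major urinary protein genes. Gm32468, an unnamed long non-coding RNA (chr10:93084206-93093727), was at 0.339, 0, 0.316 and 0.257 TPM in the F/F livers and 91.6, 119, 90.5 and 84.4 TPM in the W/W livers. Its F/F livers held at most 5 recovered reads, and the log2 fold change of -6.31 ± 0.28 (adjusted p = 3.0e-16) depends on the pseudocount of 1. Ugt1a5, a glucuronosyltransferase with 64.0% shared stretches, was at 3.88, 2.28, 2.78 and 2.13 TPM in the F/F livers and 138, 178, 140.2 and 154 TPM in the W/W livers (-5.36 ± 0.32, adjusted p = 9.6e-14). The urinary protein genes Mup15 (-7.57), Mup17 (-7.41), Mup7 (-7.19), Mup11 (-5.38) and Mup14 (-5.27) share 77.8% to 100% of their stretches with other genes, so that the level of each is uncertain. As an example, Mup15 was at 1.97, 1.19, 3.06 and 2.09 TPM in the F/F livers and 782, 229, 1211 and 489.5 TPM in the W/W livers. In Mup7, W/W replicate 2 was far below the other W/W livers (1114, 63.7, 1790.1 and 609 TPM, against 2.19, 2.02, 5.7 and 1.69 TPM in F/F), with -8.20 when it was left out and -6.60 without W/W replicate 3.

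Set against heterozygous W/F livers with the same treatment, F/F livers had 3616 genes called higher (21.7%) and 676 lower (4.06%), 4292 in all (25.8%). TPM as deposited gave 10409 calls (62.6%), 93.5% of them upward (58.5% of all genes), and after rescaling 6689 (40.2%), 54.1% of them upward. This contrast shares the F/F libraries with the one above, so the values are given side by side. Of the 4066 genes higher in F/F than in W/W, 2885 were also called higher than in W/F, 1180 were not called and 1 was lower. Of the 1157 lower genes, 464 were also lower than in W/F, 676 were not called and 17 were higher. For lipid and sterol synthesis the means of the heterozygous livers lay nearer to F/F than to W/W in the 7 genes plotted. The mean of Scd1 was 1900.2 TPM in the heterozygous livers, against 21770 (W/W) and 583 TPM (F/F), and that of Pnpla3 was 1.99 TPM, against 75.8 and 1.14 TPM (n = 4 each). The log2 fold change of F/F over W/F was -1.71 (adjusted p = 1.6e-05) for Scd1 and -0.51 (adjusted p = 0.19) for Pnpla3. In that contrast 5 fatty acid and triglyceride genes of 25 were lower and 2 higher, and of 25 sterol genes 2 were lower (Tm7sf2 among them, -0.98, adjusted p = 5.7e-06) and 1 higher, Sqle (0.78, adjusted p = 2.2e-04).

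In the 16 genes plotted of the other groups the heterozygous means lay nearer to W/W. All 19 lipid-associated macrophage genes were higher in F/F than in W/F, as were 17 of 17 duct genes, 22 of 25 collagen and matrix genes, 18 of 22 matrix enzymes, 18 of 22 stellate cell genes and 23 of 27 cell cycle genes, with 0 lower in these lists. Gpnmb was at 0.931 to 37.7 TPM in W/F (5.32, adjusted p = 5.5e-09), and Col1a1 at 5.66 to 27.5 TPM (3.25, adjusted p = 9.8e-08). Among P450 and conjugation enzymes 17 of 27 were lower in F/F than in W/F and 0 higher (1 without W/F replicate 2), and among growth hormone signalling and male-biased genes 13 of 18 and 0. Replicate 2 of W/F stood apart from the other 3 W/F livers, with Lcn2 at 471 TPM against 5.62 to 12.5 TPM, Saa1 at 1188 TPM against 17.0 to 34.6 TPM and Gpnmb at 37.7 TPM against 0.93 to 1.74 TPM. That liver also entered the shared estimate of spread, and so the standard errors of F/F over W/W for these genes. Without it the MHC class II genes called higher went from 4 of 11 to 11 of 11, the cytokine and innate sensor genes from 18 to 24 of 29, the interferon-stimulated genes from 3 to 8 of 19 and the acute phase genes from 2 to 6 of 18. With all libraries, 21.7% of all genes were called higher.

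**Figure D4:**
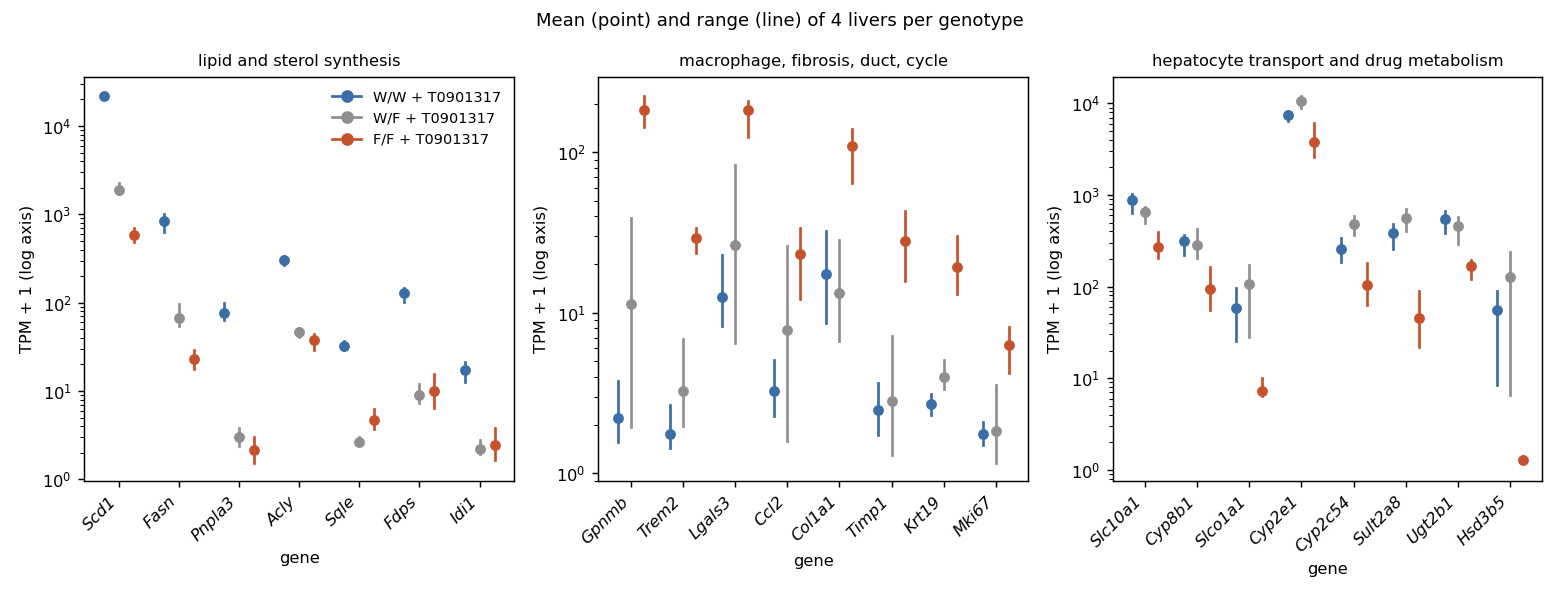
Mean (point) and range (line) of TPM + 1 on a log axis in 4 W/W, 4 W/F and 4 F/F livers with T0901317, for genes of lipid and sterol synthesis, of macrophages, fibrosis, ducts and the cell cycle, and of hepatocyte transport and drug metabolism. W/F lies near F/F in the first panel and nearer to W/W in the others, by group means.

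The genotype difference with T0901317 departed from that with vehicle for part of the genes. The interaction contrast, which asks how far F/F over W/W differed between T0901317 and vehicle, called 2228 genes (13.4%), 544 with a higher value under T0901317 (3.27%) and 1684 with a lower one (10.1%). TPM as deposited gave 5065 calls (30.4%), 10.8% of them upward (3.29% of all genes), and rescaled TPM gave 2904 (17.5%), 42.0% of them upward (7.33% of all genes). Without F/F replicate 3 and W/W replicate 2, which stood nearest to the other genotype, 1331 genes were called. Of the 4066 genes higher in F/F with T0901317, 831 were called with a lower value under T0901317 than under vehicle and 61 with a higher one. Of the 1157 lower genes, 150 had a higher value and 180 a lower one.

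Many fibrosis and macrophage genes, and part of the duct genes, had a lower F/F over W/W value under T0901317 than under vehicle. The interaction was negative for 18 of 25 collagen and matrix genes (positive for 1, the collagen gene Col5a3, 1.13), 13 of 22 matrix enzymes, 12 of 19 lipid-associated macrophage genes, 8 of 17 duct genes and 9 of 27 cell cycle genes, against 10.1% of all genes. In Fabp5, of the macrophage list, the genotype difference turned its sign. The cell cycle count was 3 without F/F replicate 3 or without W/W replicate 2, matrix enzymes 9 without F/F replicate 3 or without both, and the collagen and matrix count 11 without both. Col1a1 in F/F averaged 269 TPM with vehicle and 108 TPM with T0901317, and in W/W 3.89 and 16.5 TPM (interaction -3.19 ± 0.56, adjusted p = 1.2e-04). The F/F mean was lower, and the W/W mean higher, with T0901317 than with vehicle. Negative interactions were also called for Timp1 (-2.57), Spp1 (-2.79) and Mki67 (-1.21), while that of Gpnmb was not called (-1.59, adjusted p = 0.11).

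Most synthesis genes called in the interaction had a lower value under T0901317. Of the sterol genes 18 of 25 had a lower value under T0901317, and the median log2 fold change of the list was -0.28 with vehicle and -1.72 with T0901317. Sqle averaged 2.39 TPM in W/W and 9.35 TPM in F/F with vehicle, and 31.2 and 3.69 TPM with T0901317, so that the log2 fold change went from 1.59 to -2.80 (interaction -4.40 ± 0.24, adjusted p = 7.7e-14). Pnpla3, of the triglyceride list, showed the same direction (-4.62 ± 0.47, adjusted p = 4.1e-08), at 2.63 and 1.2 TPM with vehicle. Of 25 fatty acid and triglyceride genes, 10 likewise had a lower value under T0901317 and 1, Scd1, a higher one, and the median log2 fold change of the list was -0.68 with vehicle and -2.62 with T0901317. Scd1 averaged 7896 TPM in W/W and 13.1 TPM in F/F with vehicle, a log2 fold change of -9.09 against -5.23 with T0901317 (interaction 3.86 ± 0.42, adjusted p = 1.2e-07). Among 6 lipogenic regulators 3 had a higher value, Srebf1 among them (1.55), and 0 a lower one. Of 15 sterol and phospholipid handling targets of LXR, 4 had a higher value, such as Abcg5 (1.32), and 4 a lower one, such as Pltp (-2.26). Over all genes the shares were 3.27% and 10.1%.

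P450 and conjugation enzymes had a higher value under T0901317 in 19 of 27 members and a lower one in 0, against 3.27% and 10.1% of all genes. So did 9 of 18 growth hormone signalling and male-biased genes and 11 of 22 complement and coagulation genes. The complement and coagulation count was 8 without F/F replicate 3 and W/W replicate 2, and 15 with voom on recovered reads. Inmt, a methyltransferase, averaged 21.4 TPM in F/F with vehicle and 1167 TPM with T0901317, against 1694 and 2956 TPM in W/W (interaction 5.0 ± 0.51, adjusted p = 4.1e-08). Cyp2c54, a P450 with 25.7% shared stretches, had 4.24. Among Kupffer cell genes 5 of 13 had a higher value and 0 a lower one. Clec4f averaged 0.354 TPM in F/F with vehicle and 30.3 TPM with T0901317, against 72.3 and 105 TPM in W/W (interaction 4.03 ± 0.39, adjusted p = 1.5e-08). Vsig4 (3.07) and Cd5l (4.80 ± 0.54, adjusted p = 2.4e-07) followed, while Timd4 and Cd163 stayed low in F/F in both treatments, at 0.101 and 0.0515 TPM on average with vehicle.

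The genes with the widest interaction were Mup3, Serpina1e, Inmt, Cd5l, Serpina4-ps1 and Slc22a7 upward and Gm22935, Ly6d, Fabp5, G6pdx, Pnpla3 and Sqle downward. Mup3, a urinary protein gene with 13.3% shared stretches, averaged 102 and 22853 TPM in F/F and W/W with vehicle and 1186 and 5907 TPM with T0901317 (5.57). For Serpina1e (34.6% shared, 5.37), the F/F mean was 308 TPM with vehicle and 278 TPM with T0901317, while the W/W mean was 4035 and 78 TPM. Slc22a7, an organic anion carrier (4.62), averaged 2.26 and 5.11 TPM in F/F and 55.3 and 3.34 TPM in W/W. The pseudogene Serpina4-ps1 had 4.75, and its lower level in F/F with T0901317 (-1.77 ± 0.74, adjusted p = 0.036) lost its call without F/F replicate 1, 3 or 4 or W/W replicate 1 or 3 (adjusted p of 0.0649 to 0.165). Downward, Ly6d, a surface protein of the Ly6 family, averaged 994 and 4.17 TPM with vehicle and 523 and 120.1 TPM with T0901317 (-5.44). G6pdx, which supplies NADPH for synthesis (-4.42), and Fabp5 (-5.11) were above W/W with vehicle and below it with T0901317. Gm22935, annotated as a small nuclear RNA, had -5.64.

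**Figure D5:**
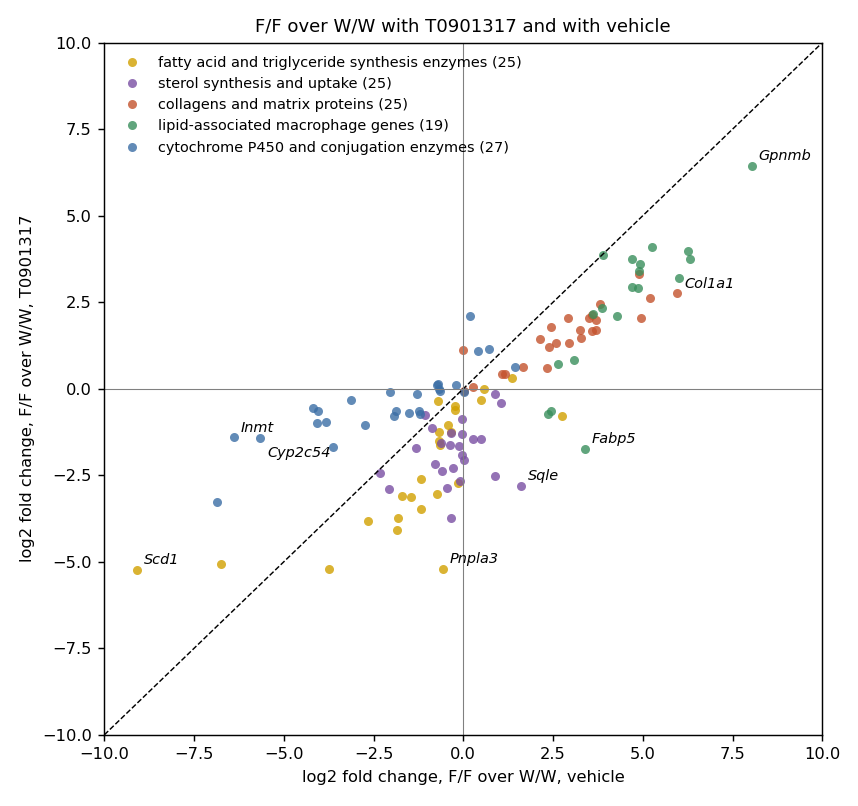
Log2 fold change of F/F over W/W with T0901317 (vertical) against that with vehicle (horizontal) for the members of 5 gene lists, with a dashed line where both are equal. Most collagen, matrix and macrophage genes lie under the line at the right, sterol genes lie on both sides of 0 with vehicle and below 0 with T0901317, and most P450 genes lie above the line at the left.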

How the data were processed

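PolyA RNA of 36 mouse livers in 9 groups of 4 was sequenced, and groups were taken from the genotype, diet and treatment labels. The authors deposited 1 table of TPM for 49315 genes. Per the submitters' processing notes, Trimmomatic 0.36, STAR 2.5.2b and featureCounts of Subread 1.5.2 were used with GRCm38/mm10; the annotation release and strand setting are not given in the sources used here. Of the gene identifiers, 49056 matched the GENCODE M21 annotation, which supplied symbols, coordinates and exon lengths, and 259 did not.

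Genes at 1 TPM or more in at least 4 libraries (16638) were fitted on log2(TPM + 1) with limma 3.58.1 in R 4.3.3, with 1 mean per group over all 36 libraries and with a variance trend. The groups not described thus lent their spread. They also entered the filter and the median-of-ratios factors, both of which were taken over all 36 libraries. The 3 contrasts were F/F against W/W with T0901317, the change of that difference between T0901317 and vehicle, and F/F against W/F with T0901317. The Benjamini-Hochberg threshold was 0.05. A fold change on this scale understates the change of low genes. Since the median gene shifted, the fit was repeated on TPM divided by median-of-ratios factors, and a gene counted as called only where both fits called it in 1 direction. Relative depth came from the steps between low TPM values: of estimates under 20 reads, 93.2% to 94.9% per library in the groups compared lay within 0.1 of a whole number. Replicates of one group correlated at 0.9761 or more in the F/F and W/W groups with T0901317. Shared sequence is the percent of a gene's 50-base exon stretches that occur in another annotated gene.

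Members and gene lists were chosen with earlier results of these data known. Named genes are the 12 largest and 12 smallest changes among called genes with at least 5 TPM in a group and no overlap, plus up to 6 members of each list. For the interaction they are the 6 largest and 6 smallest among genes called there with at least 5 TPM in a group, without a condition on overlap. Members of counts of 5 or fewer outside these rules were named after their values were seen. Scripts were tested on simulated data. Alternatives were the pseudocount, filter, scaling, replicate block, library weights, libraries fitted and each library left out, and, chosen after seeing the data, recovered reads with voom and the fit without F/F replicate 3 and W/W replicate 2.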

Additional observations from a re-analysis of the deposited data

Results flagged for a closer look

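In groups of 4 livers, a value was singled out where its gap to the nearest other liver divided by the group's range passed Dixon's critical value, which chance does in about 1 of 20 groups. Among 98 groups of 49 genes printed by library, 8 values were singled out, all in F/F replicate 3 or W/W replicate 2. In W/W replicate 2 these were Lcn2 at 28.1 TPM, Ubd at 13.8 TPM, Trem2 at 1.66 TPM and Lgals3 at 21.8 TPM, each above the other W/W livers. In F/F replicate 3 they were Lgals3 at 124.0 TPM, below the other F/F livers, and Cyp4a14 at 35.8 TPM, Timd4 at 0.730 TPM and Mup7 at 5.70 TPM, above them. Each of these values lay on the side of the other genotype. None crossed into its range, but for Lcn2, Ubd, Trem2, Lgals3, Cyp4a14 and Mup7 the naming rule required this.

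The genotype difference itself differed between T0901317 and vehicle, by the limma interaction, for 2228 genes. Of the genes named, the log2 change of the difference was positive for Mup3 (5.57), Serpina1e (5.37), Inmt (5.0), Cd5l (4.80), Serpina4-ps1 (4.75), Slc22a7 (4.62), Cyp2c54 (4.24), Clec4f (4.03), Scd1 (3.86), Vsig4 (3.07), Srebf1 (1.55), Abcg5 (1.32) and Col5a3 (1.13). It was negative for Gm22935 (-5.64), Ly6d (-5.44), Fabp5 (-5.11), Pnpla3 (-4.62), G6pdx (-4.42), Sqle (-4.40), Col1a1 (-3.19), Spp1 (-2.79), Timp1 (-2.57), Pltp (-2.26) and Mki67 (-1.21).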

How the results depend on the processing

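Of 163 named genes, 143 were called in both scalings. Under the alternatives each of these was checked in TPM as deposited only. There, 134 stayed under an adjusted p of 0.05 in every alternative run, 6 did not without some 1 library, 9 under any alternative, and 0 reversed. Whether the named genes also stayed called after rescaling in each alternative was not tested. The contrast F/F against W/W with T0901317 had 9566 to 10551 genes called with 1 library left out, and 4679 to 5133 in both scalings. The interaction gave 3616 to 5493 genes with 1 library left out, and 1661 to 2370 in both scalings; it gave 2893 with voom on recovered reads, 2904 after rescaling and 2823 without F/F replicate 3 and W/W replicate 2, where 1331 were called in both scalings. F/F against W/F gave 9100 to 10511 (3564 to 4483 in both scalings) with 1 library left out and 6689 after rescaling. After rescaling the sign turned for Nr1h3 (-0.37), Abca1 (-0.33), Rxra (-0.36), Hnf4a (-0.36), Gapdh (-0.44), Elovl1 (-0.22) and Dgat1 (-0.50), none called in both scalings. Uncalled values near 0 turned with the libraries used. Dgat1 ran from -0.051 to 0.114 with 1 library or both of those libraries left out, and was -0.027 with voom. Cd5l ran from -0.41 to 0.079, and Srebf2 from -0.27 to 0.0082. By construction, rescaling removes the shift of the median gene; other causes were not tested. Livers with the same replicate number did not deviate together (r of -0.174, 0.033, 0.026 and -0.089 between F/F and W/W). With the replicate number as a block 10588 genes were called for F/F against W/W (5285 in both scalings), 5227 (2333) for the interaction and 10478 (4355) for F/F against W/F. In TPM as deposited, no named call changed with this block. Depth limits genes at a few reads, such as Cd163 and Gm32468 in F/F.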
